A study of Mus musculus with 10 samples.

Results

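The cytosolic ribosomal protein genes of mouse CD4 CD8 double-positive (DP) thymocytes were followed across 4 genotypes. Members were the genes read by a probe set with 1 symbol whose symbol begins with Rpl or Rps followed by a digit or the letter p, with the Rps6k kinases and the pseudogene symbols left out. Of 19937 named genes, 62 met this rule. By the known place of their products, 23 were counted with the small subunit and 38 with the large. Related copies (paralogs) among them were placed by their symbols, and their products need not be part of the ribosome. The other 1, Rps19bp1, is a protein that binds Rps19 and is not part of the ribosome. Of the 62 genes, 53 encode core proteins found in the ribosomes of most cells, and 8 are paralogs. For a gene with several probe sets, the brightest one over the 10 arrays stands for it.

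The 4 genotypes were DKO (E2Aflox/flox HEBflox/flox cd4-cre+, n = 3), HEBKO (HEBflox/flox cd4-cre+, n = 2), E2AKO (E2Aflox/flox Cd4-cre+, n = 2) and WT (wild-type cd4-cre+, n = 3). Each of the 10 Affymetrix arrays held RNA of DP cells sorted from 1 mouse aged 8 weeks, about 1000000 cells at over 98% purity. All groups, WT included, carried Cd4-cre, a Cre driven by regulatory sequence of the Cd4 gene, which is active in DP thymocytes and in the T cells that descend from them. E2A (gene Tcf3) and HEB (gene Tcf12) are basic helix-loop-helix transcription factors that bind DNA in pairs at E boxes, with the letters CANNTG. The comparison addresses how DP cells differ when they lack either factor or both.

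A cytosolic ribosome is built from a small subunit, which holds the mRNA and reads its codons, and a large subunit, which joins amino acids. Each core protein is needed in about the same amount as the others, so their genes are usually regulated together, at transcription and through a run of pyrimidines (C or T) that begins at the first base of many of their mRNAs and controls their translation. Resting thymocytes at the DP stage are small cells that make little new protein, whereas the dividing cells before them are large and rich in ribosomes.

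The bases around the annotated start are shown for 6 members, because the pyrimidine run is the best known feature that ribosomal protein genes share. An annotated start need not be the first base of the mRNA in DP cells, which was not measured here. RefSeq promoter windows (GRCm38.p6) were at hand for 50 of the 62 members. Each line gives the 10 bases before and the 20 bases after the annotated start, 5′ to 3′ on the gene's strand, and capitals mark the run, a C followed by at least 4 bases that are C or T. Rps18, Rpl38 and Rps6 were called higher in DKO and hold a run, Rpl28 holds one and was not called, and Rpl41 and Rpl10, with the 2 largest differences, hold none in this window. The windows are those of Rps18 at chr17:33955646-33955675 (minus strand), Rpl38 at chr11:114668570-114668599 (plus), Rps6 at chr4:86857348-86857377 (minus), Rpl28 at chr7:4792955-4792984 (plus), Rpl41 at chr10:128549149-128549178 (minus) and Rpl10 at chrX:74270806-74270835 (plus).
Rps18: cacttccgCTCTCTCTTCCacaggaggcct
Rpl38: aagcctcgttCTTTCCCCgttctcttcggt
Rps6: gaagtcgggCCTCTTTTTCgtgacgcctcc
Rpl28: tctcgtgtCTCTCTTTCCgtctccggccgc
Rpl41: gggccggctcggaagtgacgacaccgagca
Rpl10: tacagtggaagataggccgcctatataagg

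A run of at least 5 pyrimidines that began with C within 10 bases of the start, on the gene's strand, was present in 31 of the 59 member windows (52.5%), against 30.7% of all 32851 promoter windows. A run of at least 8 was present in 27.1% of member windows and 8.11% of all windows. When the base before the run had to be A or G, the shares were 37.3% and 22.9% for runs of at least 5, and 11.9% and 5.49% for runs of at least 8. This stricter form and the looser one were both chosen after their shares were seen. The median DKO minus WT difference was 0.54 log2 units in the 23 core members with a run of at least 5 in the looser form. It was 0.54 in the 19 without, and 14 and 15 genes of these groups were called higher. The probe set that stands for a gene may read a pseudogene elsewhere. These values therefore cannot tie a promoter to the response of its own gene.

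The E box CAGCTG, which reads the same on both strands, was searched together with CAGGTG and its reverse complement, in the same windows of 250 bases before and 50 after the start. At least 1 of these words was present in 16.9% of member windows and 32.9% of all windows. CACGTG, the E box known as the target of Myc and its partner proteins, was present in 11.9% of member windows and 7.15% of all windows. Windows of neighbouring starts overlap, and 1 site of Rpl19 and 1 of Rpl34 each fell in 2 member windows. No position can match 2 of these words, each search covered both strands, and a match is a run of letters in this window and not evidence of binding. Stretches around an E box, in capitals, are given for 3 genes that were called higher in DKO: Rpl41 at chr10:128549289-128549318 (minus strand, 138 bases before the start), Rpl6 at chr5:121204354-121204383 (plus, 135 bases before) and Rpl22 at chr4:152325545-152325574 (plus, 169 bases before 1 of its 2 annotated starts).
Rpl41: ccatactggaaaCAGGTGctggtgttgaaa
Rpl6: gctcagccatctCAGCTGcccttacctatt
Rpl22: ttcttatccggcCAGGTGgtgatttgttta
Of the 6 core members with such an E box other than CACGTG, 5 were called higher in DKO, as were 24 of the 36 with none. Of the 5 core members with CACGTG, 2 were called higher, as were 27 of the 37 without it. These counts too cannot tie a promoter to its own gene's response, since a probe set may read a pseudogene elsewhere.

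Tcf3 was 9.29, 8.93 and 8.94 (log2 intensity) in DKO 1 to 3 and 9.23 and 9.12 in E2AKO 1 and 2, all below its WT values of 9.65, 9.85 and 9.63. Tcf12 was 10.68 to 10.73 in DKO and 11.15 and 11.48 in HEBKO, below 11.74 to 11.91 in WT. Whether either probe set reads the deleted exons is not given in the sources used here. Upper-quartile intensities ran between 291 and 328 across the 10 arrays, and correlations between arrays of a group between 0.98 and 0.989. All 59 members that were tested lay above the 40th percentile of the array on all 10 arrays. The 3 left out, the testis-expressed paralogs Rpl10l and Rpl39l and the muscle paralog Rpl3l, averaged 5.71, 4.69 and 5.73 in DKO and 5.66, 4.71 and 5.73 in WT.

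In DKO cells the ribosomal protein genes were higher together. By limma, with adjustment over all 13138 genes tested, 36 of the 59 members were called higher in DKO than in WT at an adjusted p under 0.05 and 0 were called lower, where 8.18% of all genes tested were called higher and 5.41% lower (10.8% higher among genes with a mean log2 intensity of at least 10). The median difference over the 59 members was 0.52 log2 units, a 1.43-fold level, against -0.01 over all genes tested, and 56 differences were positive. The range ran from -0.27 for Rpl29 to 0.94 for Rpl41. The count fell to 23 without WT 3 (4.13% of all genes called higher), to 23 without DKO 1 (6.57%), and the median then lay within 0.44 to 0.59 for all arrays left out in turn. In a bulk sample such as these, a change in the share of cells of a type and a change in RNA per cell cannot be told apart, and since RMA gives the arrays a common distribution of values, all differences are relative to the rest of the transcripts.

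**Figure D1:**
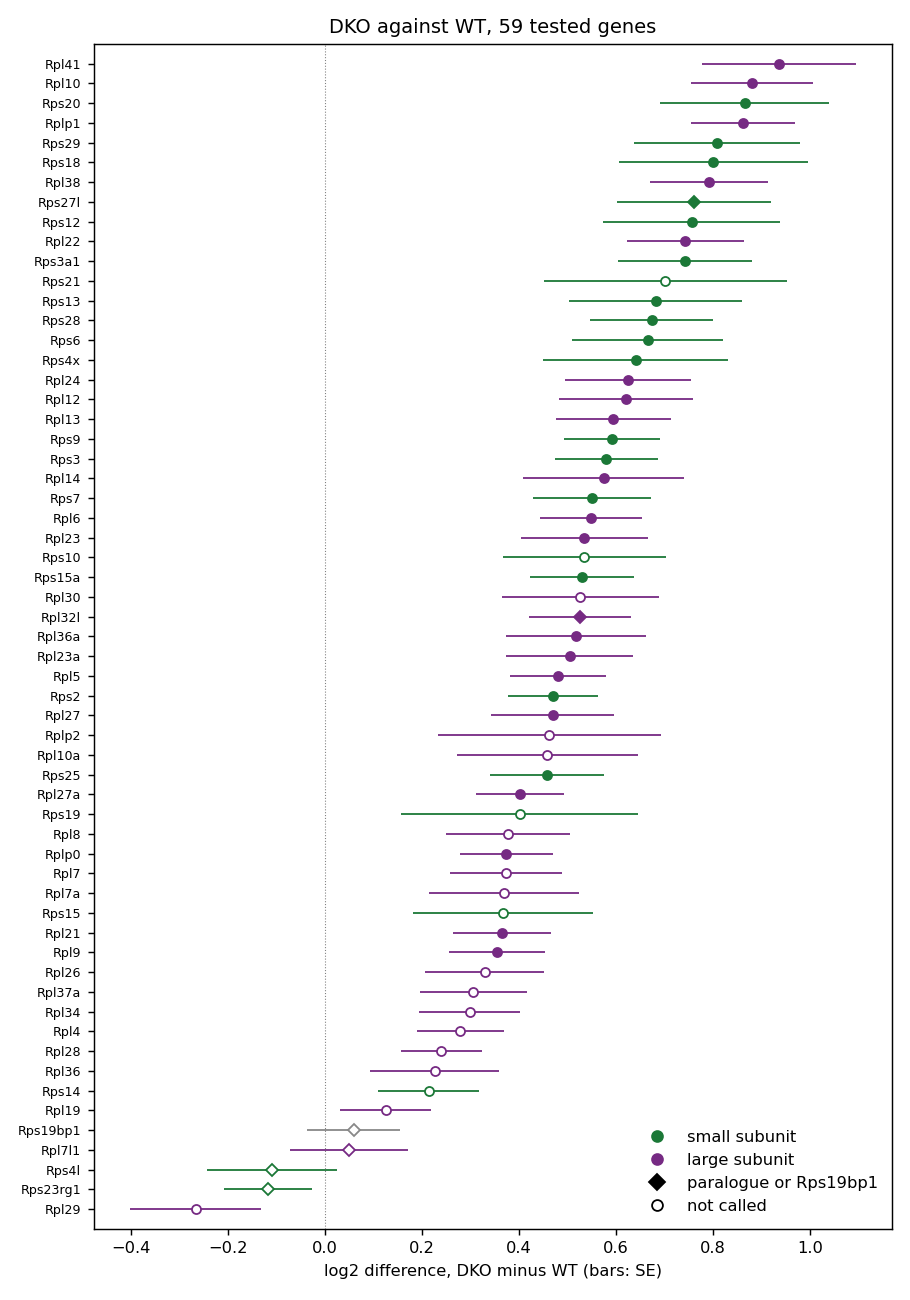
Log2 difference, DKO minus WT, with its standard error (horizontal bars) for each of the 59 tested genes, ordered by size. Filled symbols mark the 36 called genes, all of them right of 0, and 3 genes lie left of 0, none of them called.

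The rise was present in every DKO array. The median deviation of the 59 members from their WT means was 0.62, 0.41 and 0.45 log2 units in DKO 1 to 3 and 0.45 and 0.29 in HEBKO 1 and 2. It was 0.07 and 0.01 in E2AKO 1 and 2, and -0.08, 0.12 and -0.04 in WT 1 to 3. DKO and HEBKO arrays lay above all WT and E2AKO arrays, and DKO 2, DKO 3 and HEBKO 1 lay close together. Of the 59 genes, 46 had all 3 DKO values above all 3 WT values and 0 lay wholly below, where 16.7% and 13.4% of all genes tested did so.

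The median difference was larger for small-subunit than for large-subunit genes, a gap for which no test is given. Of the 20 core small-subunit genes, 15 were called higher in DKO than in WT, with a median of 0.62 log2 units, and of the 33 core large-subunit genes 19 were called higher, with a median of 0.46. By array, the small-subunit median was 0.86, 0.52 and 0.56 above the WT mean in DKO 1 to 3, and the large-subunit median was 0.52, 0.37 and 0.41. The small-subunit median exceeded the large-subunit median by 0.35, 0.16 and 0.15 in DKO 1 to 3, by 0.28 and 0.05 in HEBKO, by 0.20 and -0.07 in E2AKO, and by 0.09, 0.06 and -0.10 in WT. All 3 DKO arrays lay above the 3 WT arrays in this gap, but E2AKO 1 and HEBKO 1 lay among the DKO arrays. The gap between the medians of the fitted DKO differences was 0.15, within 0.09 to 0.21 over the settings tried, beside an SD of 0.135 between arrays of a group. The arrays numbered 1 were the highest of DKO, HEBKO and E2AKO for small-subunit genes, and in WT the array numbered 2 was.

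**Figure D2:**
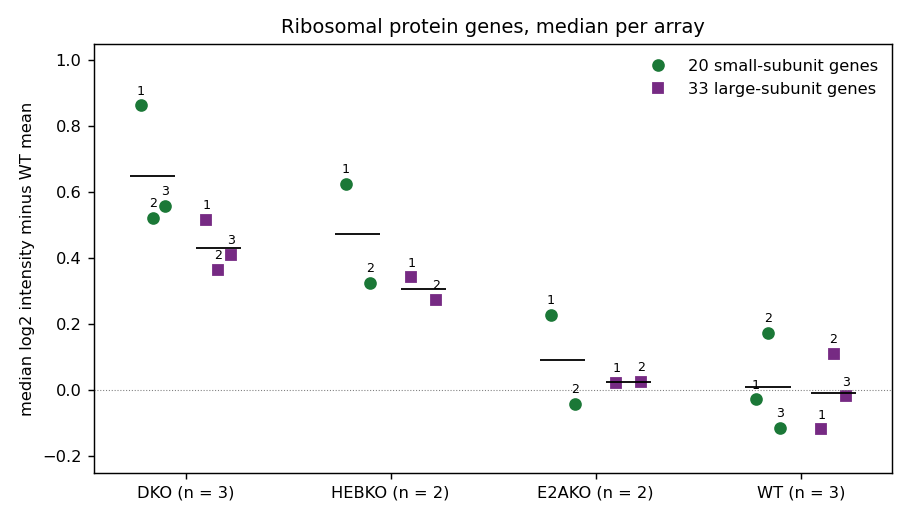
Median log2 deviation from the WT mean for the 20 small-subunit and 33 large-subunit core genes, 1 point per array (numbers are replicate numbers, lines are group means). All DKO and HEBKO points for both subunits lie above the WT points, and array 1 of DKO, HEBKO and E2AKO is the highest of its group for small-subunit genes.

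The large-subunit genes with the largest differences were Rpl41 and Rpl10. Rpl41, which encodes the smallest protein of the ribosome, was 11.70, 11.20 and 11.16 in DKO 1 to 3, 11.29 and 11.06 in HEBKO, 10.69 and 10.32 in E2AKO, and 10.58, 10.45 and 10.24 in WT. Both DKO and HEBKO values lay above all E2AKO and WT values. Its difference, DKO minus WT, was 0.94 ± 0.16 (SE; adjusted p = 0.0022 by limma), a 1.91-fold level. Rpl10, among the last proteins to join the large subunit in the cytoplasm, was 12.52, 12.58 and 12.43 in DKO, 12.34 and 12.20 in HEBKO, 11.74 and 11.40 in E2AKO, and 11.67, 11.81 and 11.40 in WT. The 4 groups of this gene fell into DKO, then HEBKO, then E2AKO and WT intermingled, and DKO minus WT was 0.88 ± 0.13 (adjusted p = 0.000662 by limma).

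Rpl38, a protein needed in mice for translation of Hox mRNAs, was 11.46, 11.45 and 11.35 in DKO and 10.45, 10.91 and 10.54 in WT, a difference of 0.79 ± 0.12 (adjusted p = 0.00109 by limma). Rpl22, without which mouse alpha beta T cells fail to develop, was 9.13, 8.84 and 8.98 in DKO and 8.12, 8.35 and 8.25 in WT, a difference of 0.74 ± 0.12. For both genes the lowest DKO array lay above the highest WT array. Rpl5, which with Rpl11 and the 5S rRNA forms a particle that can bind the p53 regulator Mdm2, differed by 0.48 ± 0.10, and Rpl24, at the bridge between the subunits, by 0.62 ± 0.13. Both were called by limma (adjusted p = 0.00749 and 0.00772).

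The stalk proteins, which recruit the factors that power each step of translation, had differences between DKO and WT of 0.37 to 0.86. Rplp1 was 12.77, 12.82 and 12.95 in DKO, 12.55 and 12.27 in HEBKO, 11.86 and 11.98 in E2AKO, and 11.92, 12.12 and 11.91 in WT. Its DKO values did not overlap any other group, and DKO minus WT was 0.86 ± 0.11, with the lowest adjusted p of the members (0.000247 by limma). Rplp0, the base of the stalk, was 13.37, 13.21 and 13.24 in DKO and 12.94, 12.96 and 12.81 in WT, a called difference of 0.37 ± 0.10 (adjusted p = 0.0229 by limma). Rplp2, the partner of Rplp1, was read by a dim probe set with widely spread values, 7.49, 7.01 and 6.99 in DKO and 7.04, 6.60 and 6.47 in WT. Its groups overlapped and its difference of 0.46 ± 0.23 was not called (adjusted p = 0.235 by limma).

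Among small-subunit genes, Rps20, Rps29 and Rps18, all proteins of the subunit's head, had the largest differences. Rps20 was 11.54, 11.11 and 11.08 in DKO, 11.31 and 10.81 in HEBKO, 10.89 and 10.43 in E2AKO, and 10.39, 10.56 and 10.19 in WT (DKO minus WT 0.87 ± 0.17, adjusted p = 0.00644 by limma). Rps29 was 12.95, 12.57 and 12.52 in DKO, 12.69 and 12.36 in HEBKO, 12.19 and 11.75 in E2AKO, and 11.91, 12.11 and 11.59 in WT (0.81 ± 0.17, adjusted p = 0.00831). In both genes DKO 1 was the highest array, DKO did not overlap WT, and E2AKO 1 exceeded all WT arrays. Rps18 was 12.61, 12.05 and 12.14 in DKO, 12.31 and 11.78 in HEBKO, 11.80 and 11.19 in E2AKO, and 11.60, 11.50 and 11.29 in WT. The difference for Rps18 was 0.80 ± 0.19 (adjusted p = 0.0182 by limma), and it lost its call in 2 of the 19 other settings. Nor was it called in a further fit, on all probe sets in place of 1 per gene (adjusted p = 0.0539 by limma).

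**Figure D3:**
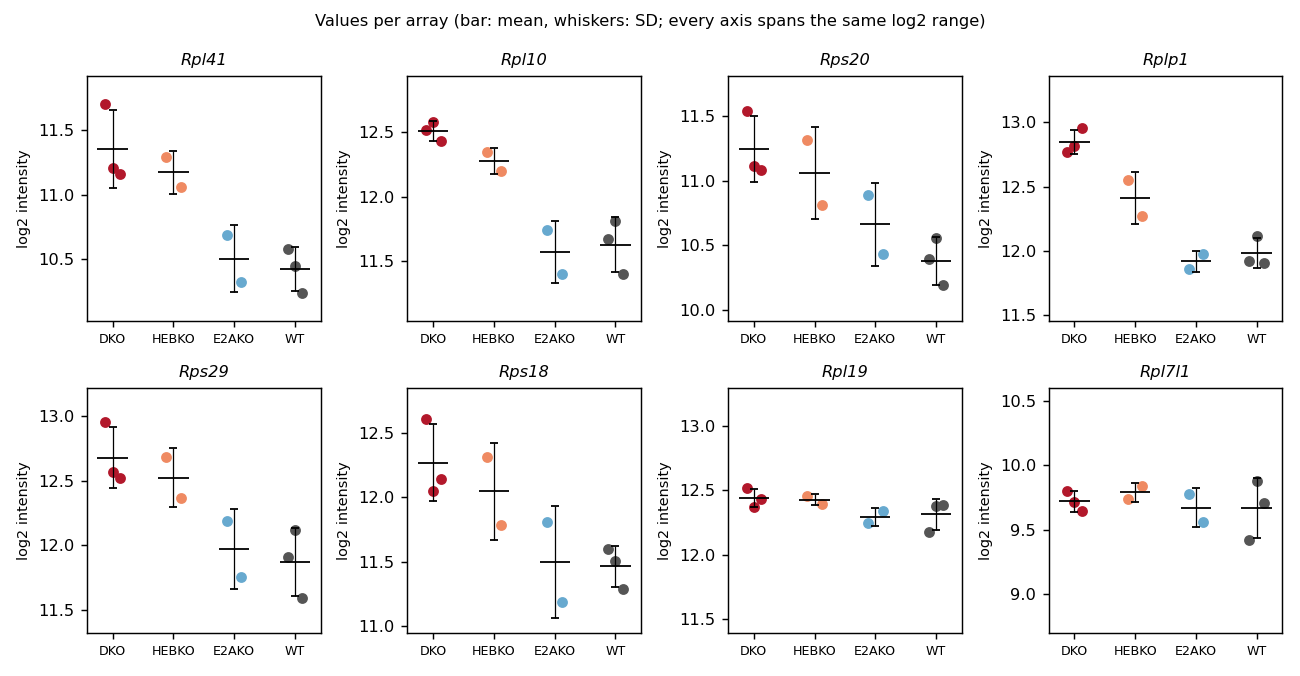
Log2 intensity per array for 8 genes, with group means (bars) and SD (whiskers), every axis spanning the same range. Rpl41, Rpl10, Rps20, Rplp1, Rps29 and Rps18 are higher in DKO and HEBKO than in WT, with DKO minus WT between 0.80 and 0.94, while Rpl19 and Rpl7l1 differ by 0.13 and 0.05 and their groups overlap.

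Rps12, Rps3a1, Rps13 and Rps28 differed by 0.76 ± 0.18, 0.74 ± 0.14, 0.68 ± 0.18 and 0.67 ± 0.13 log2 units between DKO and WT, all called by limma at adjusted p between 0.00396 and 0.0257. In the fit on all probe sets Rps12 and Rps13 were not called (adjusted p = 0.0527 and 0.0682 by limma). Rps6, the substrate of the S6 kinases, was 13.17, 12.82 and 12.95 in DKO and 12.04, 12.48 and 12.42 in WT, a difference of 0.67 ± 0.16 (adjusted p = 0.0148 by limma). All these genes had DKO values that lay wholly above WT. Rps3, at the channel where mRNA enters, differed by 0.58 ± 0.11, and Rps2, next to it on the subunit, by 0.47 ± 0.09.

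Not every core gene was called. Rpl19, a large-subunit protein that reaches across to the small subunit, was 12.51, 12.37 and 12.43 in DKO and 12.17, 12.38 and 12.38 in WT. These values overlap, and the difference of 0.13 had a 95% interval of -0.08 to 0.33 (adjusted p = 0.454 by limma), so a difference of the median size of the members lay outside it. Rps14, whose human gene lies in the segment lost in the 5q- blood disorder, differed by 0.21 (-0.01 to 0.44), and Rpl28 by 0.24 (0.06 to 0.42). Rps21, a small-subunit protein, was 10.67, 9.84 and 10.05 in DKO and 9.50, 9.73 and 9.22 in WT, without overlap, but its spread left the difference of 0.70 ± 0.25 uncalled (adjusted p = 0.0907). Rps19, mutated in human Diamond-Blackfan anaemia, was likewise spread, at 9.93, 8.81 and 9.28 in DKO and 9.10, 9.08 and 8.63 in WT. Rpl29 was the 1 core gene with a negative difference: 7.47, 7.34 and 7.69 in DKO, overlapping 7.83, 7.63 and 7.84 in WT, with -0.27 ± 0.14 (adjusted p = 0.247 by limma). At the edge of the threshold, Rpl14 and Rps4x were called at adjusted p = 0.0399 and 0.0452, and Rpl30 and Rpl7 were not, at 0.0516 and 0.0531.

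Both older and younger protein families were among the called genes. Of 23 core members with counterparts in bacteria as well as in archaea and eukaryotes, 16 were called higher in DKO (median 0.48), and of 28 without a bacterial counterpart, 17 were (median 0.54), the stalk genes Rplp1 and Rplp2 being put in neither class. Of the 40 members with a mean log2 intensity of at least 10, 29 were called, and of the 19 dimmer members 7 were.

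The paralogs were split. Rps27l, a copy of Rps27 that p53 induces in human cells, was 7.89, 7.85 and 8.05 in DKO, 7.82 and 7.98 in HEBKO, 7.43 and 7.28 in E2AKO, and 6.80, 7.56 and 7.15 in WT. Its DKO minus WT difference was 0.76 ± 0.16 (adjusted p = 0.00789 by limma). Rpl32l was 8.76, 8.58 and 8.42 in DKO and 8.03, 8.18 and 7.97 in WT, a called difference of 0.53 ± 0.10. The remaining 3 tested paralogs, Rpl7l1, Rps4l and Rps23rg1, differed by 0.05 ± 0.12, -0.11 ± 0.13 and -0.12 ± 0.09, and none was called. Rps19bp1 differed by 0.06 ± 0.10, and its DKO values of 8.38, 8.48 and 8.37 overlapped 8.39, 8.33 and 8.34 in WT.

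In HEBKO cells the same direction was measured without a call. By limma 0 of the 59 members passed in HEBKO against WT (0.274% of all genes tested were called higher and 0.632% lower), while 38 had an unadjusted p under 0.05, all of them higher, against 16.7% of all genes in either direction. The median member difference was 0.40 log2 units, and 56 were positive. It was 0.49 for small-subunit and 0.34 for large-subunit core genes. In 41 members both HEBKO arrays lay above all WT arrays, where 16.5% of all genes did so, and in 1, Rps23rg1, both lay below (14% of all genes). HEBKO and DKO were set against the same WT arrays, so these values are not independent of those for DKO.

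The lowest adjusted p in HEBKO was that of Rpl32l (0.0547 by limma), at 8.60 and 8.63 in HEBKO against 8.03, 8.18 and 7.97 in WT. Rpl41 differed by 0.75 ± 0.18 (adjusted p = 0.0758) and Rpl10 by 0.65 ± 0.14 (adjusted p = 0.062), neither of them overlapping WT. HEBKO 1 was higher than HEBKO 2 for small-subunit genes, with medians of 0.63 and 0.32. Without WT 2, the highest WT array for most members, 11 members were called higher in HEBKO, where 2.73% of all genes then were, and without DKO 1 the count was 1 (0.183% of all genes). Without HEBKO 1 the median was 0.29.

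In E2AKO cells the members lay near their WT levels. By limma 0 of 59 were called in either direction (0% of all genes tested), 3 had an unadjusted p under 0.05 (3.18% of all genes), and the lowest adjusted p was 0.998. The median difference was 0.03. The 3 genes were Rps6, Rpl7a and Rps3a1, at 0.54, 0.49 and 0.35 log2 units. Rps6 was 13.00 and 12.70 in E2AKO, above all 3 WT arrays and close to the DKO arrays, and DKO minus E2AKO was 0.13 ± 0.17 (not called). These are values of the brightest probe set of Rps6. Its others differed by -0.05 to 0.39 between E2AKO and WT, the next brightest by -0.01. In 4 members both E2AKO arrays lay above WT and in 3 below, where 5.82% and 10.6% of all genes did so.

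Between the knockouts, DKO was higher than E2AKO for 20 members and lower for 0 by limma, where 5.1% of all genes tested were called higher and 3.97% lower, and the median difference was 0.45. The largest were Rpl10 (0.94 ± 0.14, adjusted p = 0.0014), Rplp1 (0.93 ± 0.12, adjusted p = 0.000549) and Rpl41 (0.85 ± 0.18, adjusted p = 0.0105), with their values given above. Rpl22, Rpl38 and Rps18 followed, at 0.82, 0.78 and 0.77. This count was 10 without E2AKO 1, 7 without E2AKO 2 and 12 without DKO 3, in each of which 2.38% to 3.04% of all genes were called higher.

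Between DKO and HEBKO no member passed the test. Of 59 members 0 were called by limma in DKO against HEBKO (3.63% of all genes tested), 4 had an unadjusted p under 0.05 (15.2% of all genes), and the median difference was 0.13, with 50 members higher in DKO. Rplp1 came nearest, with DKO values wholly above those of HEBKO and a difference of 0.44 ± 0.12 (adjusted p = 0.0754, 95% interval 0.17 to 0.70). The other 3, Rpl12, Rps15a and Rps9, differed by 0.45, 0.29 and 0.29. Rpl41 differed by 0.18 with an interval of -0.20 to 0.57, which holds both no difference and a sizeable one. The interaction, DKO minus HEBKO minus E2AKO plus WT, asks whether the loss of both factors departs from the sum of the 2 single losses on the log2 scale. By limma 0 of 59 members were called (0.632% of all genes tested), 2, Rplp1 and Rpl29, had an unadjusted p under 0.05 (8.72% of all genes), the lowest adjusted p was 0.355 and the median was 0.05.

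Several probe sets read most members, and they bear on how far a value belongs to 1 gene. The 62 members had 190 probe sets, 25 members having 1 and the others up to 10. Ribosomal protein genes have many processed pseudogenes, and signal from gene and copy was not told apart here. Where each probe set lies on the genome was not looked up. The brightest probe set of a gene may read a copy, so a value under a gene's name is that of its probe set. Fitted as separate features, 72 of 179 member probe sets past the filter were called higher in DKO and 0 lower, where 4.85% of all 22308 probe sets were called higher. Of the 120 probe sets that did not represent a gene, 47 were called higher, 115 were positive, and their median difference was 0.48. Those 120 are further readings of the same arrays and no new samples.

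Within a gene the probe sets did not always match. The 7 of Rps18 differed by 0.78 to 1.15 between DKO and WT. The 7 of Rps6 ranged between 0.20 and 1.03, and in E2AKO the other 6 lay between -0.05 and 0.39, beside 0.54 for the one with the highest mean. A second bright probe set of Rpl38 differed by -0.10 in DKO, against 0.79 for the first, and the dimmest of the 5 for Rpl10 by 0.10. Other probe sets also lay far below the one used: -0.69 against 0.50 for Rpl23a, and -0.39 against 0.46 for Rps25. The same held for Rpl27 (-0.06 against 0.47), Rpl24 (0.03 against 0.62) and Rps12 (0.02 against 0.76). As given above, 115 of the 120 probe sets not used were positive. The 5 probe sets of Rpl19 past the filter lay between 0.00 and 0.30.

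Of the core ribosomal proteins that the symbol rule does not take, Rpsa and Fau had probe sets of their own. Rpsa, which also serves as a laminin receptor, was 11.88, 11.98 and 11.91 in DKO and 10.73, 11.54 and 11.36 in WT, a difference of 0.71 ± 0.18 (adjusted p = 0.0237 by limma). Fau, which encodes a fusion of a ubiquitin-like protein with the small-subunit protein eS30, differed by 0.43 ± 0.10 (adjusted p = 0.0145). Neither overlapped between DKO and WT. In the fit on all probe sets Rpsa was not called (adjusted p = 0.0651 by limma). Another 16 core genes were read only by probe sets shared with other symbols and were taken from the fit on all probe sets, where 4.85% were called higher in DKO. Of these, 9 were called higher, all 16 were positive, the median was 0.61, and they ran between 0.04 for Rps27 and 1.27 for Rpl39, a large-subunit protein at the exit tunnel. The last 9 of the 80 core genes had no probe set under their symbols and were not analysed here.

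Among genes that make ribosomes the called shares varied by list, beside 8.18% of all genes tested called higher in DKO. Small nucleolar ribonucleoproteins guide the modification of rRNA, and 5 of 8 tested were called higher in DKO by limma (median 0.47), among them Nop10 (0.90 ± 0.13), Nhp2 (0.62 ± 0.14), Nop58 (0.60 ± 0.15) and Fbl (0.49 ± 0.13). Of 34 assembly factors of the small subunit 12 were called higher (median 0.34), with Utp20 at 0.67, Riok2 at 0.61, Imp3 at 0.61 and Pno1 at 0.61. Of 39 assembly factors of the large subunit 9 were called higher (median 0.28), led by Mdn1 at 0.84, Npm1 at 0.71, Rrs1 at 0.67 and Noc3l at 0.61. The RNA polymerase I machinery, which transcribes rRNA, had 2 of 15 called higher (median 0.16), Polr1b at 1.00 and Polr1a at 0.76, a count near the share of all genes. The 4 lists held 0 genes called lower.

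Translation factors with a terminal pyrimidine run had 4 of 11 called higher in DKO (median 0.36), Eef1b2 at 0.68, Eif3e at 0.57, Eef1d at 0.38 and Eif3f at 0.36. Other initiation factors had 4 of 23 (median 0.16), Eif1ax at 0.57, Eif3m at 0.55, Eif3k at 0.55 and Eif2b3 at 0.54. Of 77 mitochondrial ribosomal protein genes, which serve a separate ribosome, 14 were called higher and 0 lower (median 0.23). Over all genes tested, 8.18% were called higher in DKO and 5.41% lower. The cytosolic ribosomal proteins thus had 36 of 59 called beside these counts, and the difference between lists was not tested.

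In HEBKO the medians of these lists were 0.52 for small nucleolar ribonucleoproteins (1 of 8 called, Nop10), 0.27 for small-subunit assembly factors (0 of 34 called), 0.20 for large-subunit assembly factors (1 of 39 called, Tma16), 0.20 for RNA polymerase I (0 of 15 called), and 0.25 for mitochondrial ribosomal proteins (1 of 77 called), where 0.274% of all genes tested were called higher. In E2AKO all of them lay between -0.07 and 0.10.

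**Figure D4:**
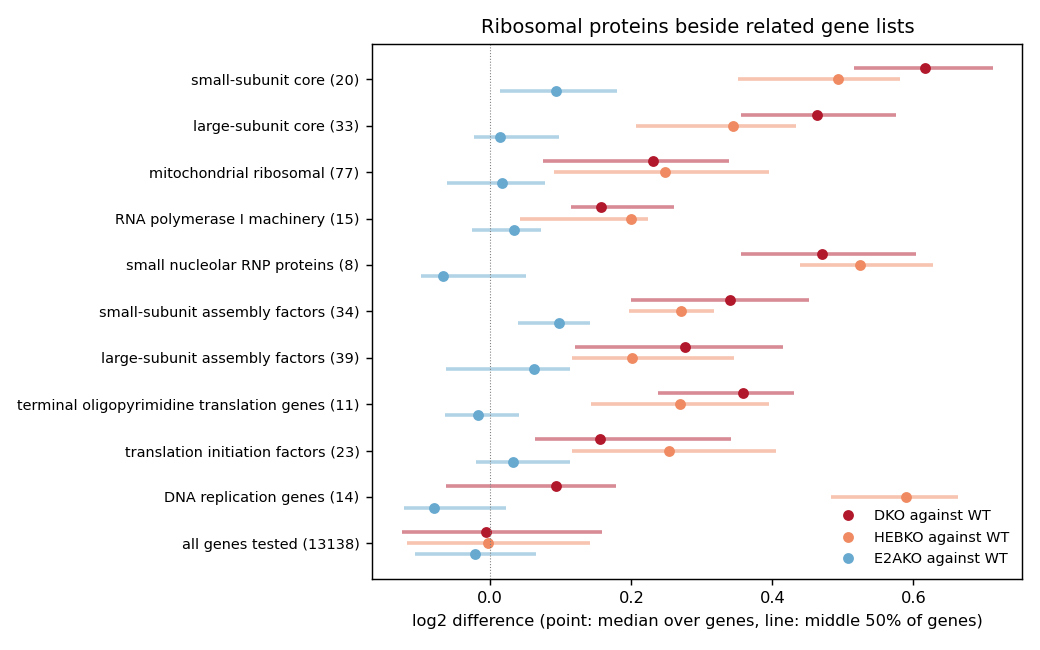
Median log2 difference from WT (points) and the middle 50% of genes (lines) for the ribosomal protein genes and related lists, the number of tested genes in brackets, in DKO, HEBKO and E2AKO. In DKO the small-subunit genes lie at 0.62 and the large-subunit genes at 0.46, the E2AKO points lie near 0, and the DNA replication genes are at 0.59 in HEBKO and 0.09 in DKO.

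Of 12 regulators of ribosome supply, 1 was called higher in DKO, a count near the 8.18% of all genes tested. It was Myc, a transcription factor known to drive ribosomal protein and rRNA synthesis. Myc was 9.04, 8.52 and 9.10 in DKO, 8.47 and 8.17 in HEBKO, 7.66 and 7.32 in E2AKO, and 7.26, 7.97 and 7.70 in WT. The DKO and HEBKO values lay above all WT values, and DKO minus WT was 1.25 ± 0.20 (adjusted p = 0.0014 by limma), while HEBKO minus WT was 0.68 ± 0.22 (adjusted p = 0.153). Its part in the rise of the ribosomal protein genes was not tested. Of 7 tested genes of p53 and its targets 0 were called higher and 2 lower in DKO, Sesn2 at -0.45 and Trp53inp1 at -0.43. Of all genes tested 5.41% were called lower.

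The 14 genes of DNA replication, active in dividing cells, were set beside the ribosomal protein genes. Their median deviation from the WT mean was 0.19, 0.18 and -0.19 in DKO 1 to 3, 0.59 and 0.59 in HEBKO, 0.19 and -0.31 in E2AKO, and -0.19, 0.30 and -0.12 in WT. By limma 0 were called higher and 1 lower (Gins2) in DKO against WT, beside 8.18% and 5.41% of all genes tested. In HEBKO 0 were called, and the median difference was 0.59. Both HEBKO arrays lay above the DKO arrays for these genes. Within WT and E2AKO the arrays stood in the same order for both sets of genes, WT 2 and E2AKO 1 being the highest. Their part in the ribosomal protein differences was not tested.

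Markers of the DP stage fell in DKO, all 8 with negative differences and 6 called lower by limma, where 5.41% of all genes tested were. Rag2 at -1.96, Cd4 at -1.88, Rag1 at -1.64 and Dntt at -0.99 had the largest differences. The summed intensity of the 8 was 22500 to 26600 in DKO, 32300 to 42700 in HEBKO, 43900 to 45000 in E2AKO and 44800 to 47000 in WT. Of these markers, Cd8a and Cd4 remained bright in DKO, at 12.57 to 12.71 and 10.20 to 10.64. In HEBKO 0 of the 8 were called, but all 8 differences from WT were negative, with a median of -0.33. Their median deviation from the WT mean was -0.89, -0.58 and -0.71 in DKO 1 to 3, -0.46 and -0.09 in HEBKO, -0.09 and 0.00 in E2AKO, and -0.06, 0.01 and 0.02 in WT, HEBKO 2 lying near the E2AKO arrays. Their part in the ribosomal protein differences was not tested.

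Markers of B, myeloid, erythroid and thymic epithelial cells were read beside these values. Of these lists 2, 2, 2 and 5 genes were tested, and 0 were called higher in DKO by limma. Summed over 5 B cell markers, intensity was 310 to 364 in DKO, 367 to 381 in HEBKO, 378 to 440 in E2AKO and 416 to 477 in WT, with Cd79a, Ms4a1 and Blnk below the 40th percentile on all arrays and Cd79b called lower in DKO (-0.59). Over 7 myeloid markers it was 357 to 394 in DKO, 390 to 414 in HEBKO, 398 to 438 in E2AKO and 400 to 440 in WT, 5 of them, Lyz2 and Csf1r included, being below that percentile throughout, Itgam was called lower in DKO (-0.67), and Lyz1, the other one tested, differed by 0.21 (not called). Over 3 erythroid markers it was 199 to 236 in DKO, 210 to 243 in HEBKO, 242 to 248 in E2AKO and 227 to 248 in WT. Over 8 thymic epithelial markers it was 611 to 658 in DKO, 609 to 686 in HEBKO, 689 to 745 in E2AKO and 897 to 971 in WT, with Krt5 and Psmb11 below the 40th percentile on all arrays and Cldn4 (-1.26) and Epcam (-0.54) called lower in DKO, while Foxn1 differed by 0.04 (not called). The DKO sums lay below the WT sums for 3 of the 4 cell types and overlapped them for erythroid markers, and their part in the ribosomal protein differences was not tested.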

How the data were processed

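RNA of sorted DP thymocytes was measured on 10 arrays, 1 per mouse. The authors made the intensity values, which are linear, by RMA, per the submitters' processing notes, which state no version; standard RMA corrects background, equalises the arrays' distributions and summarises probes. From them log2 values were taken with no constant added. Of 34760 probe sets, 21640 carried 1 symbol in GEO's platform annotation, 1321 several and 11799 none, and each gene took its probe set with the highest mean. Genes that reached their array's 40th percentile on 2 or more arrays (13138) were fitted with limma 3.58.1 in R 4.3.3, with 1 mean per genotype over all 10 arrays, so that groups of 2 share the spread (residual degrees of freedom 6, prior 5.68). There were 6 contrasts. P-values are two-sided and Benjamini-Hochberg adjusted over all genes tested, and calls were made under 0.05. The steps were tested on simulated data. The number of arrays limits the precision.

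The members, gene lists and tests were chosen with earlier results of these data known, and the DNA replication list and Rpl32l's place among the paralogs were added later. Values are given for the 15 largest called rises in DKO, 6 in other contrasts, the paralogs, the stalk genes, genes at the threshold, and up to 4 called genes a list. Others, such as Rpl5, Rpl19, Rpl28, Rpl29, Rps2, Rps3, Rps14, Rps19 and Rps21, were named after their values were seen. Promoter sequences are RefSeq's (GRCm38.p6). Alternatives were other filters, normalizations, probe set rules and fits, a replicate block and arrays left out.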

Additional observations from a re-analysis of the deposited data

How the results depend on the processing

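Of the 36 members called in DKO against WT, 20 were called in all 19 other settings and 16 were lost in at least 1, Rpl14 (9) and Rps4x (8) most often; 11 uncalled members were called in at least 1, among them Rpl29, called lower under array weights (-0.37), and 0 called members changed sign. The count lay between 23 and 39 when arrays were left out in turn (23 without WT 3 and 23 without DKO 1) and between 32 and 46 otherwise. It was 25 when each gene's probe set was taken from a fit on every probe set, an alternative added after the data were seen, and that fit gave 13 for DKO against E2AKO. The HEBKO count of 0 became 1 with a filter at the 60th percentile, 1 with eBayes with trend and robust, 11 with array weights, and 0 to 11 with arrays left out. The median HEBKO difference lay between 0.29 and 0.45 with arrays left out. DKO against HEBKO gave 1 under renewed quantile normalization and 1 with trend and robust, and DKO against E2AKO gave 7 to 23 with arrays left out. E2AKO against WT and the interaction stayed at 0 in every alternative run. The array-weight estimate stopped before it converged. The interaction has no fit with only the groups compared, since it needs all groups. The cause of these shifts was not tested.

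Replicate numbers are shared between genotypes. With the replicate number as a block, 43 members were called in DKO against WT, 1 in HEBKO against WT and 28 in DKO against E2AKO. The 13 pairs of arrays with the same number had correlations of their deviations from group means between -0.292 and 0.484 (median 0.154, 10 over 0.1), and 24 other pairs had a median of -0.154. Of these other pairs 5 were over 0.1. In HEBKO and E2AKO the deviations of either array are those of the other with the sign reversed. The correlations are therefore not independent, and part of the contrast between the medians is forced. No label says what a number marks, and whether arrays with the same number share anything more was not tested.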
